A study of Drosophila melanogaster with 3 samples.

Results

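The genes described here are 10 members of the segmentation cascade of the fly embryo, given as a list of symbols: the gap genes hb, Kr, kni, gt and tll and the pair-rule genes eve, ftz, hry (hairy), run and odd. All 10 were found once by symbol among the 13945 protein-coding genes on the chromosome arms of the Ensembl annotation. For each of them, every peak whose summit lay in the gene body or within 10 kb on either side was taken (the window), since early enhancers of these genes lie in such flanks. The peaks came from chromatin immunoprecipitation with sequencing (ChIP-seq) of whole *Drosophila melanogaster* embryos of both sexes, 0 to 24 hours old, from 1 transgenic line with green fluorescent protein (GFP) on the C-terminal end of one of its proteins. The labels do not settle which protein: CG45071 is the fusion partner in one field, while others tie the line to CG6854 and CTPsyn. They give an anti-GFP antibody in one field and CG6854 as the antibody in another. There was 1 group of 3 biological replicates and no second condition, so the comparisons below are between genes and between lists. Embryos of this age range include stages long after the segmentation genes have drawn their stripes, and the tissue was not dissected.

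Gap genes are the first zygotic genes to divide the embryo along its length. They encode transcription factors that read maternal gradients such as that of Bicoid and are expressed in broad bands. Pair-rule genes read the gap proteins and are expressed in stripes, each stripe often driven by its own enhancer several kilobases from the start of the gene, and they set up the segment polarity genes. The enhancers of both classes are textbook examples of DNA bound by many transcription factors in the early embryo.

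Of the 10 genes, hb and hry had a peak in the optimal list, the 3545 peaks that passed the authors' analysis of irreproducible discovery rate (IDR), and the remaining 8 had none in their windows. Among all protein-coding genes, 53.5% had at least 1 optimal summit in a window drawn the same way. Both peaks lay within 500 bp of a transcription start site (TSS) of their own gene, and 14.1% of all protein-coding genes had an optimal summit that close. The gap genes and the pair-rule genes thus had 1 optimal peak each per 5 genes, a difference of 0 peaks per gene.

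The sequences of the 2 optimal peaks are shown first because they are the strongest sites in the windows of these genes. Sequences are read in the direction of the gene, on the dm6 build, and capitals mark any match to 5 short motifs searched on both strands, with overlapping matches counted: GAGAG (GAGA factor), CAGGTA (Zelda), TAATCC (Bicoid), ATCGAT (the core of the DREF site) and CACACA. The hb peak, at chr3R:8694203-8694387 on the minus strand, lies wholly in the intron of the shorter hb transcript and holds none of the 5 motifs.
hb optimal peak: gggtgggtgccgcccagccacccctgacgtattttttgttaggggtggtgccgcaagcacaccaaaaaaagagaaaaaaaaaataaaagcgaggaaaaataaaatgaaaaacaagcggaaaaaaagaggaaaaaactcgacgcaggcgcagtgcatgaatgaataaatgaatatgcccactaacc
The hry peak, at chr3L:8675608-8676043, runs over the gene's start. The 151 bases of it that lie upstream of the transcript, at chr3L:8675608-8675758 on the plus strand, hold 1 CAGGTA and 7 overlapping CACACA matches. This stretch does not include the summit, which lies in the transcript. Within 100 bp of the summit there were 1 GAGAG and 1 ATCGAT match and none of CAGGTA or CACACA.
hry optimal peak, upstream part: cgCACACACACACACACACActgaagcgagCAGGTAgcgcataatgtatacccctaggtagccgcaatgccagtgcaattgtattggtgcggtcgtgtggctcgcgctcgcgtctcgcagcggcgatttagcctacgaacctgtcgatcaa

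3 pooled peaks below the optimal list are shown for comparison, chosen after their values were seen. They are the best-ranked peak in the upstream flank of hry (chr3L:8672561-8672860, plus strand, 300 bases around a summit 3048 bp upstream of hry), the best-ranked peak at odd (chr2L:3611857-3612156, minus strand, around a summit 5251 bp upstream) and the best-ranked peak at run (chrX:20693814-20694110, plus strand, in the intron of the longer run transcript and outside its leader). Neither the hry flank nor the odd sequence holds any of the 5 motifs. The run sequence holds 13 overlapping GAGAG matches and 1 CACACA match.
hry upstream flank: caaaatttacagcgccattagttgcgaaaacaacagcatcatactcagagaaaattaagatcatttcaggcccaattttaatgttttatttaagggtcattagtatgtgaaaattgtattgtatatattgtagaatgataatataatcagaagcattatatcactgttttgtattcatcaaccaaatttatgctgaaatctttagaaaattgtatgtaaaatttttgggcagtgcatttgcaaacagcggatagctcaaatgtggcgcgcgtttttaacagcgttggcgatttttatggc
odd upstream flank: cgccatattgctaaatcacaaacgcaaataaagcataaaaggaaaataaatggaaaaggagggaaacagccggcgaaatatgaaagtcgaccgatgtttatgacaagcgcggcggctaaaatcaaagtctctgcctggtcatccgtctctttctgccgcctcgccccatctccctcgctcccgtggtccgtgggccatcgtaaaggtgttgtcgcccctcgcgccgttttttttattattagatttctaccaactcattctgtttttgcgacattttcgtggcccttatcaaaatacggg
run intron: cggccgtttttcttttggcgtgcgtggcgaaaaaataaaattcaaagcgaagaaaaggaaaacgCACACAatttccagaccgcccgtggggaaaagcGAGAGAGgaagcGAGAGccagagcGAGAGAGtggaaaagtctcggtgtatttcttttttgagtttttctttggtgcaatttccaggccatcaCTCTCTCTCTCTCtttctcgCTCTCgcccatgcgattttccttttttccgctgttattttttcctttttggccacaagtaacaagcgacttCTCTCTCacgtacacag

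The peak lists give each peak's own signal value, as the authors' caller wrote it, and they are used here as ranks, with rank 1 the highest signal in its list. The pooled list, made from the alignments of the 3 replicates together, and each replicate's own list held 30000 entries, peaks and background together by the submitters' naming. The 3545 optimal peaks were the 3545 highest-ranked pooled peaks, so a pooled rank past 3545 means that a peak is not optimal. Read numbers are not in peak lists, so depth is unknown, and no p-value is given because the 10 genes are not replicates of a condition and the replicates form 1 group.

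hb encodes a zinc-finger protein of the anterior part of the embryo. It lies at chr3R:8690980-8697822 on the minus strand (FBgn0001180) and has 2 annotated TSSs. Its optimal peak had pooled rank 797 and a signal of 260, with the summit 278 bp downstream of the inner start. It ranked 401, 859 and 1446 in replicates 1, 2 and 3, whose own summits lay 314, 279 and 268 bp downstream of that start. The peak thus stood within the 3545 highest ranks of every replicate, as did 57.2% of all optimal peaks. Its place varied little between the replicates.

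The other hb peaks were weak. A pooled peak 336 bp upstream of the outer start had rank 18117 and was found in replicate 3 (rank 9049) and in neither of the others. Replicate 2 listed summits on the other side of that start, 158 and 363 bp downstream, at ranks 25174 and 20572. No pooled peak overlapped them. A peak 8070 bp upstream had rank 10542 and was found in replicates 2 and 3, at ranks 11154 and 8184, and its nearest protein-coding TSS was that of CG8112. The lists of replicates 1, 2 and 3 held 3, 5 and 4 summits in the hb window (mean 4 ± 1, SD, n = 3), against 3 in the pooled list.

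Kr, which encodes a zinc-finger protein of the central body region (chr2R:25226611-25231394, plus strand, FBgn0001325), had 4 pooled summits and no optimal one. The best had rank 8199 and a signal of 70.1, and lay 6690 bp downstream of the Kr start, past the end of the gene, in an intron of the overlapping gene CG9380. It ranked 9400, 11928 and 12287 in replicates 1, 2 and 3. A pair of overlapping peaks in the Kr coding exon, 1011 and 1340 bp from the start, had ranks 19188 and 23372 and shared 1 replicate peak each in replicates 1 and 3 and none in replicate 2. The last, 12987 bp from the start with rank 22619, was nearest to CG30429 and was found in replicate 1 (rank 15046) and in neither of the others. None of the 4 pooled summits lay upstream of the gene. Each replicate listed at least 1 upstream summit that no pooled peak overlapped, and the best of these had rank 11895, 6127 bp upstream in replicate 1. The replicates held 7, 2 and 5 summits in the window, so the number varied more between replicates than at hb.

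kni and gt were nearly bare. kni, which encodes a protein of the nuclear receptor family and acts in the posterior (chr3L:20692330-20695378, minus strand, FBgn0001320), had no pooled summit, as did 5.41% of all protein-coding genes. Replicate 1 held 2 weak summits there, at ranks 14247 and 17036, and replicates 2 and 3 held none. gt, which encodes a basic leucine zipper repressor (chrX:2427113-2428967, minus strand, FBgn0001150), had 1 pooled summit, of rank 23780, 9772 bp downstream of its start and nearer to the TSS of CG32797. It was matched at rank 24201 in replicate 1, at rank 10636 in replicate 2 and by no peak in replicate 3. The lists of replicates 1, 2 and 3 held 2, 2 and 0 summits in the gt window.

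tll, which encodes an orphan nuclear receptor of the embryo's ends (chr3R:30852315-30854400, plus strand, FBgn0003720), had 4 pooled summits, all intergenic. The best had rank 11119 and a signal of 58.0, lay 8105 bp downstream of the start and ranked 9107 and 9334 in replicates 1 and 2, with no match in replicate 3. The other 3 had ranks of 24193, 28266 and 28316, and each was matched in at most 1 replicate. The replicates held 5, 2 and 2 summits in the tll window.

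Among the pair-rule genes, eve had no pooled summit upstream or inside the gene. eve encodes a homeodomain repressor (chr2R:9979319-9980795, plus strand, FBgn0000606), and its stripe enhancers, which flank it on both sides, are among the best studied in the fly. The 2 pooled summits in its window lay 9207 and 10203 bp downstream of the eve start, beside the TSS of TER94, which encodes an ATPase of the p97 family (633 and 206 bp from it). They had pooled ranks 14825 and 6202. The stronger ranked 7265, 7043 and 14349 in replicates 1, 2 and 3, and the weaker 23056, 11971 and 11050. By nearest TSS, eve therefore had 0 pooled summits of its own. Upstream of eve, replicate 2 listed 1 summit and replicate 3 listed 2, at ranks 25645, 28284 and 28465, and none of them met a pooled peak.

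ftz, a homeodomain gene within the Antennapedia complex (chr3R:6864324-6866244, plus strand, FBgn0001077), had 1 pooled summit, 5263 bp downstream of its start, with rank 13752. It was matched at rank 26272 in replicate 1 and at rank 8775 in replicate 3, and by nothing in replicate 2. Replicate 2 listed 3 other summits in the window, at ranks 14473, 28630 and 29830, so no summit at ftz was common to all 3 replicates.

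run, the founding member of the Runx family of transcription factors (chrX:20690670-20697321, plus strand, FBgn0003300), had 2 pooled summits. The one whose sequence is shown above lay 407 bp upstream of the inner of 2 starts, with rank 12643 and a signal of 53.6, and it was matched in replicate 3 (rank 5904) and in neither of the others. The second, 2905 bp upstream of the outer start, had rank 28098 and was matched in replicate 1 alone. No pooled run peak was thus found in more than 1 replicate.

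odd, which encodes a zinc-finger repressor (chr2L:3604224-3606756, minus strand, FBgn0002985), had 4 pooled summits, all intergenic. An overlapping pair 5251 and 5455 bp upstream had pooled ranks 7151 and 28692 and met the same replicate peaks, at ranks 21102, 5150 and 14033 in replicates 1, 2 and 3. The other 2 lay 7363 and 8201 bp downstream of the start, with ranks 23669 and 16828, and each was found in 1 replicate. Replicate 1 alone held a summit near the start of odd, 555 bp downstream at rank 14271, which no pooled peak overlapped.

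**Figure D1:**
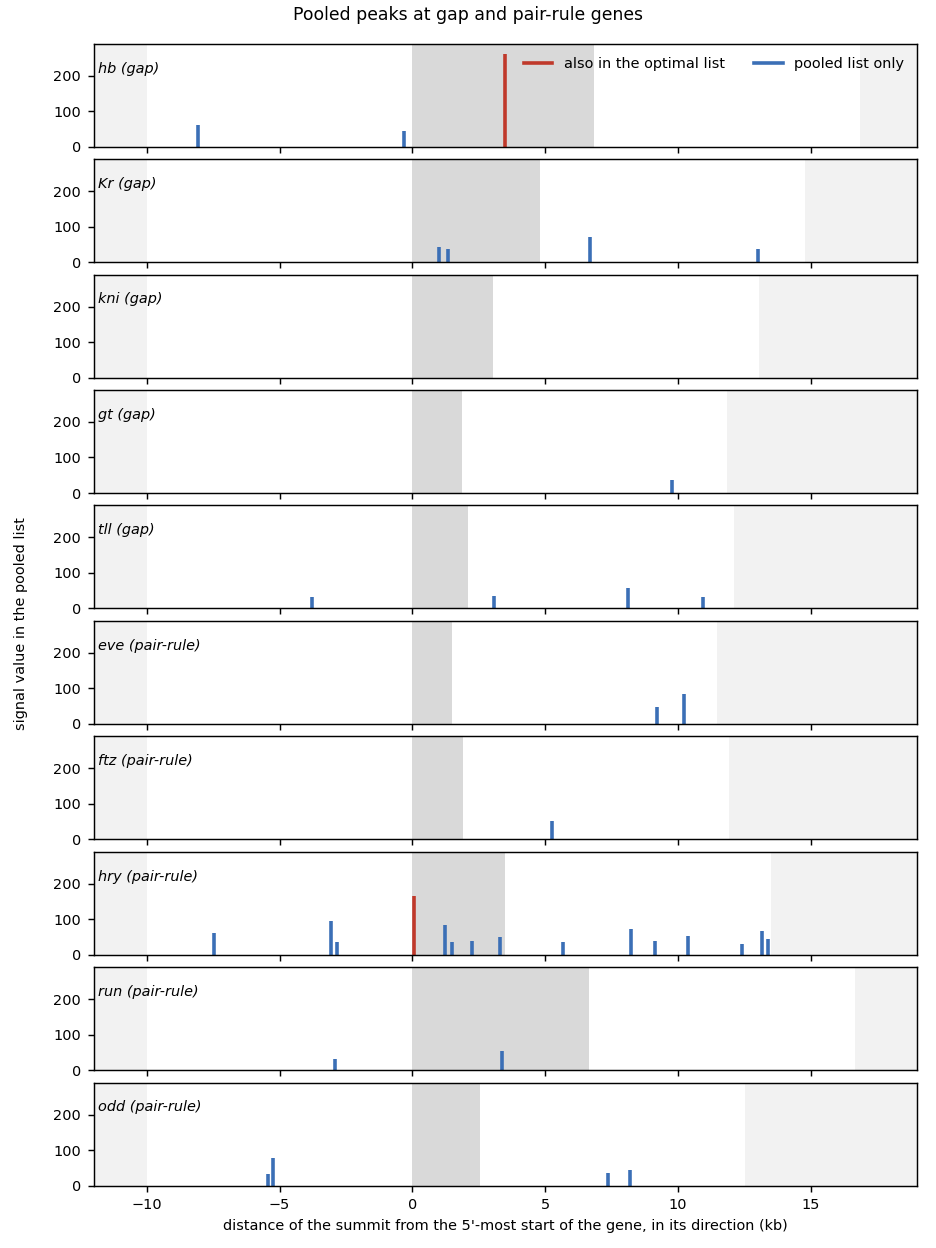
Signal value in the pooled list (vertical axis) of every pooled summit by its distance in kb from the 5'-most annotated start of each gene, in the direction of the gene (horizontal axis). Dark grey is the gene body, light grey lies outside the window, red marks the optimal peaks of hb (signal 260) and hry (signal 165), and blue the other pooled peaks, none of which exceeds 94.5.

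hry stood apart in the number of its peaks. hry encodes a basic helix-loop-helix repressor of the Hes family (chr3L:8675759-8679253, plus strand, FBgn0001168), and its stripe enhancers are known to lie upstream of the gene. It had 15 pooled summits, in 12 regions once overlapping peaks were merged, and the lists of replicates 1, 2 and 3 held 13, 18 and 16 (mean 15.7 ± 2.52, SD, n = 3). The highest count at any other of the 10 genes was 4 in the pooled list and 7 in a replicate list, so the replicate counts of hry did not overlap those of the other 9 genes. Of all protein-coding genes, 9.04% had 15 or more pooled summits in their windows, so such a number is not rare among all genes. The hry window holds no other protein-coding gene. Genes with at most 1 other protein-coding gene in the window had a median of 3 pooled summits. The share of those with 15 or more is not given here.

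The hry peaks were spread over the whole window. 3 summits lay upstream of the gene, 5 in its body and 7 past its end, and hry had the nearest protein-coding TSS for all 15. The optimal peak had pooled rank 1822 and a signal of 165, with its summit 67 bp downstream of the outer start. It ranked 1773, 1476 and 2706 in replicates 1, 2 and 3, whose summits lay 99, 67 and 35 bp downstream of the same start. All 3 ranks were within the 3545 highest of their lists, which held for 57.2% of all optimal peaks.

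The next hry peaks fell short of the optimal list. The summit 3048 bp upstream had pooled rank 4941 and a signal of 94.5, and ranked 6510 and 4793 in replicates 2 and 3, with no match in replicate 1. The summit 7466 bp upstream had pooled rank 9906, and ranked 5662 and 12925 in replicates 1 and 2, with no match in replicate 3. In the body, a summit in an intron 1032 bp from the nearest start had pooled rank 6115 and ranked 11922, 5653 and 8619.

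Past the end of hry, the summit 8031 bp from the nearest start had pooled rank 7560, and ranked 4552, 6182 and 8127 in the 3 replicates. Another at 12965 bp had pooled rank 8680, and ranked 7867, 9448 and 12143. Of the 7 summits past the end, 4 were found in every replicate and 3 lacked a match in 1, as did all 3 summits upstream. In all, 8 of the 15 pooled hry peaks met a peak in every replicate list, among them 2 overlapping pairs that met the same replicate peaks. The remaining 7 met a peak in 2 replicates each.

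**Figure D2:**
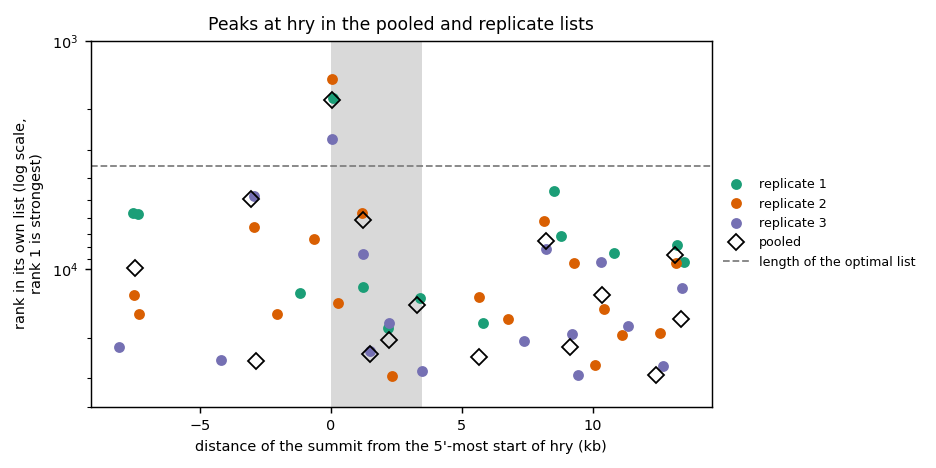
Rank of each summit at hry in its own list (vertical axis, log scale, strongest at the top) by distance in kb from the 5'-most start of hry (horizontal axis), with replicate peaks as coloured dots and pooled peaks as open diamonds. In every list the best-ranked summit in the window is at the gene's start (ranks 1773, 1476 and 2706 in replicates 1, 2 and 3). The dashed line marks rank 3545, the length of the optimal list.

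In the pooled list, the best ranks of hb and hry preceded those of the remaining 8 genes by construction, because the optimal list is the top of that list. The replicate lists also put hb and hry first. Their alignments are the ones that were pooled, so they are not independent of the pooled list. The share of all genes with a summit in the top of each replicate list is not given here. In the 3545 highest-ranked peaks of replicates 1, 2 and 3 taken one by one, 2 summits fell in the 10 windows each time, and they belonged to hb and hry each time. Outside hb and hry, the best replicate ranks were 5150 (odd in replicate 2), 5904 (run in replicate 3), 7043 and 7265 (eve, at TER94, in replicates 2 and 1) and 8775 (ftz in replicate 3). The best rank of run was 21138, 20202 and 5904 in the 3 replicates, so the order among these 8 genes was not the same from replicate to replicate.

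**Figure D3:**
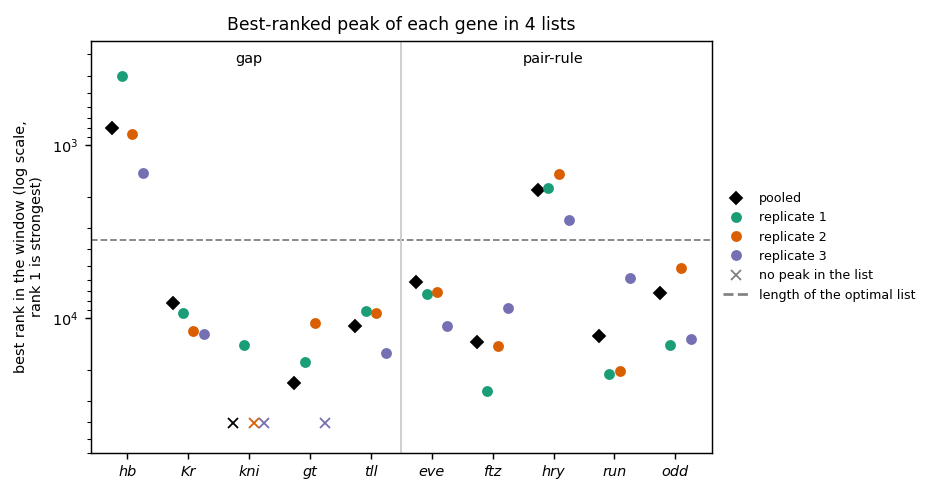
Best rank in the window of each gene (vertical axis, log scale, strongest at the top) in the pooled list (diamonds) and in replicates 1 to 3 (dots), with gap genes on the left and pair-rule genes on the right. hb and hry lie above the dashed line at rank 3545 in all 4 lists, and crosses at the bottom mark lists with no peak in the window, which are the pooled list and replicates 2 and 3 at kni and replicate 3 at gt.

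The difference between gap and pair-rule genes in pooled peaks rested on hry. The gap genes had 12 pooled summits (2.4 ± 1.82 per gene, SD over 5 genes) and the pair-rule genes 24 (4.8 ± 5.81, SD over 5 genes), a difference of -2.4 per gene. The medians ran the other way, at 3 summits per gap gene and 2 per pair-rule gene. Without hry the pair-rule genes had 9 summits in 4 genes, a mean of 2.25, and the difference from the gap genes was 0.15. In the replicate lists the means were 3.8 per gap gene and 4 per pair-rule gene in replicate 1, 2.2 and 6 in replicate 2, and 2.2 and 5.4 in replicate 3. The difference (-0.2, -3.8 and -3.2) had an SD of 1.93 between replicates, and in replicate 1 it was close to 0.

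**Figure D4:**
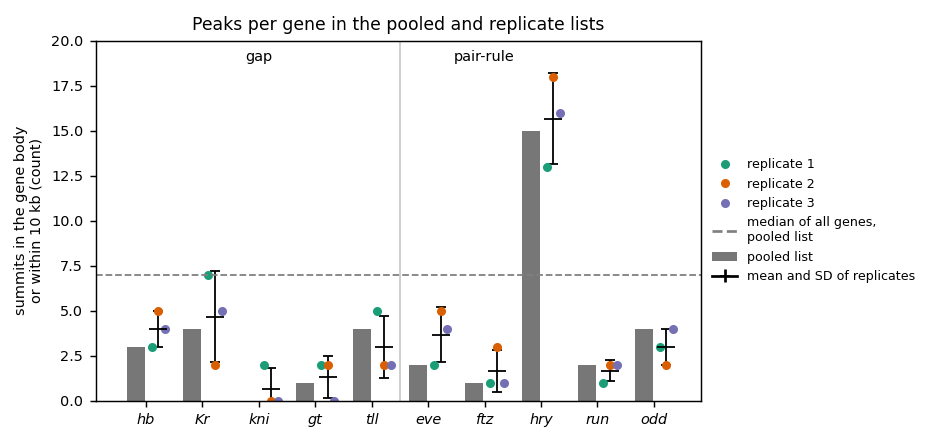
Number of summits in the gene body or within 10 kb (vertical axis) for each gene, in the pooled list (grey bars) and in replicates 1 to 3 (dots, with mean and SD over the 3 replicates in black), with gap genes on the left. hry has 15 pooled summits, the other 9 genes have 0 to 4, and the dashed line is the median of all protein-coding genes, 7.

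The best pooled rank also gave no stable order of the classes. Its median was 9659 over the 4 gap genes with a pooled summit and 7151 over the 5 pair-rule genes, a difference of 0.13 in median log10 rank, where a higher rank number is a weaker peak. The difference was -0.18, 0.15 and 0.15 in the lists of replicates 1, 2 and 3, so its sign differed between replicates.

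Pooled peaks found in every replicate were 2 at gap genes and 12 at pair-rule genes. Of the 12 pooled peaks at gap genes, 2 met a peak in every replicate list (the hb optimal peak and the best Kr peak), 5 in 2 replicates, 4 in 1 and 1 in none. Of the 24 at pair-rule genes, 12 met one in every replicate, 8 in 2 and 4 in 1. Of those 12 pair-rule peaks, 8 were at hry, and without hry the count was 4 of 9. Over all 10 genes, 14 of 36 pooled peaks, 38.9% (Wilson 95% interval 24.8 to 55.1, counting error only), were found in every replicate list, against 46.8% of all 30000 pooled peaks. With hry left out, the share was 6 of 21, 28.6%. Optimal peaks made up 5.56% of the 36 pooled peaks, against 11.8% of all pooled peaks. Of all optimal peaks, 99.1% were found in every replicate list. The part of this in the lower share at the 10 genes was not tested. Peaks that overlap each other share their replicate peaks, and the 36 peaks formed 31 regions.

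Replicate lists also held summits at these genes that no pooled peak overlapped. These were 14 of 39 summits in replicate 1, 16 of 41 in replicate 2 and 12 of 38 in replicate 3. All of them ranked past 3545.

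A pooled summit of any rank lay in the windows of 9 of the 10 genes, and 94.6% of all protein-coding genes had one. At promoters, within 500 bp of an own TSS, hb, hry and run had a pooled summit, 3 of 10, and 51.3% of all protein-coding genes had one. Per 100 kb of window there were 0.852 optimal summits at the 10 genes, against 2.65 per 100 kb of the chromosome arms. Pooled summits numbered 15.3 per 100 kb, or 9.94 without hry, against 22.4 per 100 kb of the arms. Of the 10 genes, 9 had no more pooled summits than the median gene (7), and 56.1% of all genes had no more than that. None of these differences from all genes was tested.

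The 10 genes lie in sparse surroundings, and among all protein-coding genes an optimal summit was listed for a smaller share of those with few neighbours. The windows held a median of 0 other protein-coding genes, against 5 for all protein-coding genes. Of the 10, all but eve (3 others) had at most 1 other protein-coding gene in the window, and 2 of those 9 had an optimal summit. Among all 1048 protein-coding genes with at most 1 such neighbour, 22.1% had an optimal summit, against 53.5% of all protein-coding genes, and their median of pooled summits was 3. Among the 10 genes, eve, with the most neighbours, had no optimal peak. Of those with 1 neighbour, hb had an optimal peak, and Kr and gt did not. Of those with no neighbour, hry had an optimal peak, and kni, tll, ftz, run and odd did not. The part of the neighbouring genes in the low count of peaks was not tested.

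Most of the 8 genes without an optimal peak lay far from one. The nearest optimal summit was 142305 bp from Kr, 97551 bp from gt, 46372 bp from ftz, 35791 bp from kni, 35515 bp from run, 34835 bp from tll, 22220 bp from odd and 19415 bp from eve. The median over all 10 genes was 35175 bp, against 8535 bp over all protein-coding genes and 35782 bp over those with at most 1 neighbour. Of all protein-coding genes, 97.7% were nearer to an optimal summit than Kr or as near, and 69.4% were so for eve.

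**Figure D5:**
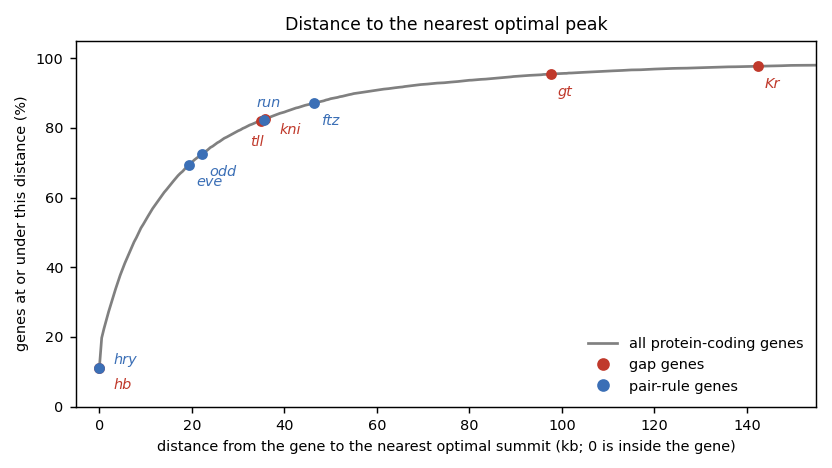
Share of all protein-coding genes (vertical axis, percent) at or under each distance from the gene to the nearest optimal summit (horizontal axis, kb, linear scale), as a grey line, with gap genes in red and pair-rule genes in blue at their own distance. hb and hry, drawn on the same spot, are at 0, tll, run and kni lie close together near 35 kb, and Kr is farthest at 142305 bp.

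Just outside the 10 kb limit there were 4 optimal summits within 20 kb of the 10 genes. 2 of them belonged to the downstream side of hry, 13096 bp from the gene (pooled rank 3196, and 1880, 4223 and 4434 in replicates 1, 2 and 3) and 17329 bp from it (pooled rank 1042, and 866, 992 and 1060), with hry as the nearest protein-coding TSS for both. Another lay 15083 bp from hb, nearest to CG8112 (pooled rank 3433). The strongest lay 19415 bp from eve, nearest to Pdrg1, with pooled rank 32 and ranks of 44, 34 and 32. Just inside the limit, the outermost pooled summit was 1 at hry, 9904 bp past the end of the gene, with pooled rank 16465.

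Pooled peaks close to the length of the optimal list also lay beyond the limit at kni and ftz. The nearest pooled summit to kni was 16221 bp away, nearest to CG34260, with pooled rank 3726 and ranks of 3822, 4804 and 9535 in replicates 1, 2 and 3. The first beyond the limit at ftz was 15608 bp away, with pooled rank 3650 and ranks of 3635, 3981 and 6237, and ftz had the nearest protein-coding TSS.

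By location, 22 of the 36 pooled summits at the 10 genes were intergenic (61.1%, against 15.9% of all pooled summits), 5 were within 500 bp of an annotated TSS (13.9%, against 33.2%) and 4 were in introns (11.1%, against 41.7%). The windows held few other protein-coding genes, and the part of this in the shares was not tested. Of the 36 summits, 9 lay upstream of the gene, 9 in its body and 18 past its end. The gap genes had 3, 3 and 6 in these places and the pair-rule genes 6, 6 and 12. Of those at pair-rule genes, hry alone had 3, 5 and 7.

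The 5 motifs were counted in the bases around the summits, and no difference in their shares was tested. Within 100 bp of the 36 pooled summits, CAGGTA was found at 1 (the intron peak of hry at 1032 bp; 2.78%, against 4.12% of all pooled peaks) and TAATCC at 0, against 5.94% of all pooled peaks. GAGAG was found at 12 (33.3%, against 25.7%), ATCGAT at 5 (13.9%, against 6.65%) and CACACA at 4 (11.1%, against 20.4%). The run peak alone had 10 overlapping GAGAG matches within 100 bp of its summit. The median GC content of these windows was 48.5% at the 10 genes, against 36.3% for all optimal peaks and 42.3% for the remaining pooled peaks. A match describes the letters and is not a bound site.

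Beyond these 10 genes, a list of 31 symbols covered other genes of the segmentation cascade, 30 of which had a unique match. Against 2 of the 10 genes above, 14 of the 30 had an optimal summit in windows drawn the same way, 46.7%, near the 53.5% of all protein-coding genes. By tier as listed here, the maternal and terminal genes had 3 of 5 and further gap genes 4 of 8. Secondary pair-rule and related genes, with Ten-m among those counted, had 3 of 6. The last tier, of segment polarity genes and the Wnt gene Wnt5, had 4 of 11, with Wnt5 among the 4. Some of these genes are long, and their windows are longer with them, such as that of pum with 60 pooled summits. The genes slp1 and slp2 shared 1 optimal summit, of pooled rank 845. It counts for slp1 among the further gap genes and for slp2 among the secondary pair-rule genes.

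At promoters, 4 of the 30 had an optimal summit, near the 14.1% of all genes. These were nkd, which encodes an antagonist of Wnt signalling (chr3L:19045343-19045778, pooled rank 929, and 2309, 644 and 1632 in replicates 1, 2 and 3), pum, which encodes an RNA-binding repressor of hb translation (chr3R:9236967-9237402, rank 1752), Ten-m, which encodes a teneurin of the cell surface (chr3L:22407678-22408113, rank 2942), and cnc, which encodes a basic leucine zipper factor of the head (chr3R:23226566-23227001, rank 2992). All 4 summits were upstream of the TSS, by 112, 160, 33 and 73 bp, while those of hb and hry were downstream.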

How the data were processed

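ChIP-seq peak lists on dm6 were analysed: the optimal list, the pooled list and the lists of 3 replicates. Per the submitters' file list deposited with the data, the authors made the replicate lists from the alignments of 1 replicate each plus a control, the pooled list from all 3 replicates' alignments, and the optimal list by IDR from those. Aligner, caller and threshold of IDR are not given in the sources used here. In these lists, the deposited signal column is the caller's own value and was used as a rank within a list. The dm3 lists were not used here.

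Coordinates are counted from 1. Genes came from Ensembl release 115, which like the RefSeq sequence is of the same assembly (Release 6). For 1 optimal peak the summit lay beyond the peak and was moved to its end. A replicate peak matched a pooled peak when they overlapped by at least 1 bp, and the best-ranked one was used. Locations were promoter (within 500 bp of a TSS) first, then exon classes, intron and intergenic. No hypothesis test was made. Motifs were searched at all pooled peaks of the 10 genes, since 2 had an optimal one. Intervals are Wilson 95% intervals. Named genes are the 10 genes, cascade genes with an optimal promoter peak, and nearest genes of described peaks, which the rule asked for at optimal peaks alone. The 10 genes, the cascade list and the motifs were chosen with earlier results of these data known. Alternatives were windows of 5 and 20 kb, nearest TSS, the 1000 strongest optimal peaks, other match rules, promoters of 100 and 1000 bp and leaving out each replicate. Merged peaks, medians, single replicate lists, leaving out hry and ranking kni past the list were added after seeing the data. Window counts and matching were checked on simulated peaks. Python 3.11.15, numpy 2.4.6, pandas 2.3.3, scipy 1.17.1 and matplotlib 3.10.9 were used.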

Additional observations from a re-analysis of the deposited data

How the results depend on the processing

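Of 49 recomputed values, 35 stayed close to the main value, 9 moved from it and 5 changed sign. Close meant within 1.5 times for a count of genes, within 1 SD between replicates for a difference and within the Wilson interval for a share. The count of genes with an optimal peak, 2, was 1 (hb) with the 1000 strongest optimal peaks, both in the window and at the promoter, and 1 (hry) at the promoter with a limit of 100 bp. With windows of 20 kb it was 3, with eve added. The difference in optimal peaks per gene between gap and pair-rule genes, 0, became -0.4 with windows of 20 kb and 0.2 with the 1000 strongest peaks. The difference in pooled peaks per gene, -2.4, became 1 with medians and 0.15 without hry, and was -0.2 in replicate 1. The difference in median log10 rank, 0.13, became -0.21 with windows of 5 kb, 0.35 with windows of 20 kb and -0.064 with nearest-TSS peaks. From mean replicate ranks it was -0.017 to 0.14 when 1 replicate was left out, with the negative value without replicate 2. The cause of these changes was not tested. The share of pooled peaks found in every replicate, 38.9%, was 19.4% when summits had to lie within 150 bp and 19.4% when peaks had to overlap by 50%. Under the main rule, 57.2% of all optimal peaks were in the top list of every replicate. Both optimal peaks of hb and hry were, against 1 of the 2 when peaks had to overlap by 50%. That rule could not be met at hb, where the pooled peak is 185 bp wide and the peaks of replicates 1 and 3 are 416 and 424 bp wide. No paired analysis was possible because there is 1 group.

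Peak lists hold no read counts, so a window without a peak shows that no peak was listed, and not that nothing bound there. Each list ends at 30000 peaks, and binding weaker than that cannot be seen. Counts over 5 genes are small and no p-value accompanies them. The embryos were of mixed ages and the lists do not separate them.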
